A study of Mus musculus with 2 samples.

Results

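The integrin subunit genes and laminin chain genes of the mouse were followed in limb tissue at embryonic day 14.5. They were chosen by symbol alone, as protein-coding genes named Itga, Itgb, Lama, Lamb or Lamc with a subunit number or letter, and made up 37 of the 43346 Ensembl genes listed. Of these, 26 encode integrin subunits, 18 of them alpha and 8 beta, and 11 encode laminin chains.

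The study sequenced total RNA in 1 group, embryos of the mouse strain B6NCrl with no genotype or treatment named, as 2 libraries labelled biological replicates 1 and 2. Each library held all 4 limbs of a pup, so that forelimb and hindlimb, and every cell type of the limb, were mixed. No conditions were compared, so levels are described across genes and between the libraries. The libraries held 34193161 expected counts in replicate 1 and 32879425 in replicate 2, of which 74373 and 71465 fell on the integrin and laminin genes.

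Both libraries are labelled as pooled male and female, with the same donor and pup numbers but different collection days, and their counts went against the sex label. Replicate 1 held 6631 counts over 4 Y-linked genes and 11 of Xist, whereas replicate 2 held 0 counts over the same 4 genes and 29957 of Xist. The 7 limb mesenchyme markers were all detected in both libraries. The spread between these libraries can hold technical and biological differences, and every SD below rests on n = 2.

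Integrins are cell surface receptors made of 1 alpha and 1 beta subunit that bind the extracellular matrix, or other cells, on the outside and the actin or keratin cytoskeleton on the inside. Laminins are secreted trimers of 1 alpha, 1 beta and 1 gamma chain that form the sheet-like core of basement membranes under epithelium and around muscle fibres, vessels and nerves. In the developing limb they line the border between ectoderm and mesenchyme, and mice that lack single chains or subunits are known for skin blistering, muscular dystrophy or kidney defects.

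Some of these genes make splice forms that differ in the tail inside the cell, and the sequences of those forms are shown because the tables resolve them unequally. In Itga6, an alternative exon of 130 nt at chr2:71853534-71853663 (GRCm38, plus strand) holds the last coding bases of the form known as A, and a junction from base 71849506 to base 71855854 skips it in the form known as B. In Itga3, an exon of 142 nt at chr11:95046449-95046590 (minus strand) has the same place in its gene. In Itgb4, a coding exon of 159 nt at chr11:116005897-116006055 (plus strand) is kept or skipped. Sequences are those of GENCODE M21 transcripts, 5′ to 3′, with the 30 bases before the junction in lower case. Capitals mark the coding bases of the alternative exon, with the stop codon for Itga6 and Itga3, or the first 30 coding bases after the skip.
Itga6 exon kept (ENSMUST00000028522): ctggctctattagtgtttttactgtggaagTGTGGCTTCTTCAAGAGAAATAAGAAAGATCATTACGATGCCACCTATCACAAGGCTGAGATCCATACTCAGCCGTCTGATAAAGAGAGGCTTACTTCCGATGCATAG
Itga6 exon skipped (ENSMUST00000112101): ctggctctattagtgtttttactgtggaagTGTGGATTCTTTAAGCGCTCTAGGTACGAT
Itga3 exon kept (ENSMUST00000001548): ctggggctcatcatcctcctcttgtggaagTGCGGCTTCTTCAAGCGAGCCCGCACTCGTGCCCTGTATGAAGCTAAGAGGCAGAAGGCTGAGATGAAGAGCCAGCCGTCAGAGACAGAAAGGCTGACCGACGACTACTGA
Itga3 exon skipped (ENSMUST00000120375): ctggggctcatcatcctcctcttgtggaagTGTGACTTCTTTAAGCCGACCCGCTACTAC
Itgb4 exon kept (ENSMUST00000021107): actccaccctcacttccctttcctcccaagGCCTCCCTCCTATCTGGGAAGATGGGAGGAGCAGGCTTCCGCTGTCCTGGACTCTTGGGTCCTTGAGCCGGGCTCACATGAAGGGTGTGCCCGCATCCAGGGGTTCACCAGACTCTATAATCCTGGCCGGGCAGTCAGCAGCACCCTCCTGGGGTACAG
Itgb4 exon skipped (ENSMUST00000068981): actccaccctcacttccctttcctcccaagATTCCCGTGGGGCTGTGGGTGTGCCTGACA

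The kept and skipped forms of Itga6 and Itga3 begin alike after the junction. Of the first 15 bases in capitals, 13 were identical between the forms of Itga6 and 12 between those of Itga3, against 3 between those of Itgb4. In Itga6 and Itga3 the sequences diverge after that stretch, which lies just inside the membrane.

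Most of the family was expressed. With detection set at 1 TPM in both libraries, where TPM is the share of transcripts that a gene holds after division by length, 30 of 37 genes passed (81.1%), against 61.4% of the 21474 protein-coding genes. The 30 were 20 integrin and 10 laminin genes, and 12 genes of the whole family averaged at least 10 TPM. At the 10 TPM mark the share over all protein-coding genes was not computed. The median over the 37 genes was 6.53 TPM, against 4.93 TPM over protein-coding genes. Itgb3, the beta subunit of the platelet fibrinogen receptor and of the vitronectin receptor, passed in replicate 1 alone, at 1.09 TPM in replicate 1 and at 0.92 TPM in replicate 2. The 6 genes under 1 TPM in both were 5 leukocyte integrin alpha genes and the laminin gene Lamc3.

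Beta subunits were dominated by Itgb1, the shared partner of most alpha subunits. Itgb1 stood at 223 TPM in replicate 1 and at 222 TPM in replicate 2, the highest level of any integrin or laminin gene. It held 68.6% of the summed TPM of the 8 beta genes in each library, and exceeded the sum of the other 7 by a log2 ratio of 1.13 ± 0.00022 (2.19-fold). Itgb5, a partner of the alphav subunit in binding vitronectin, followed at 81.1 TPM in replicate 1 and at 80.5 TPM in replicate 2.

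The remaining beta genes were all under 10 TPM. Itgb4, which joins the alpha6 subunit in hemidesmosomes of the basal epidermis, stood at 9.61 TPM in replicate 1 and at 9.64 TPM in replicate 2. The other 5, Itgb8, Itgb2, Itgb6, Itgb7 and Itgb3, lay between 0.92 and 4.27 TPM. Of the 7 neighbouring pairs in the order of mean level, 5 had ranges that did not overlap, the exceptions being Itgb2 beside Itgb6 and Itgb6 beside Itgb7.

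**Figure D1:**
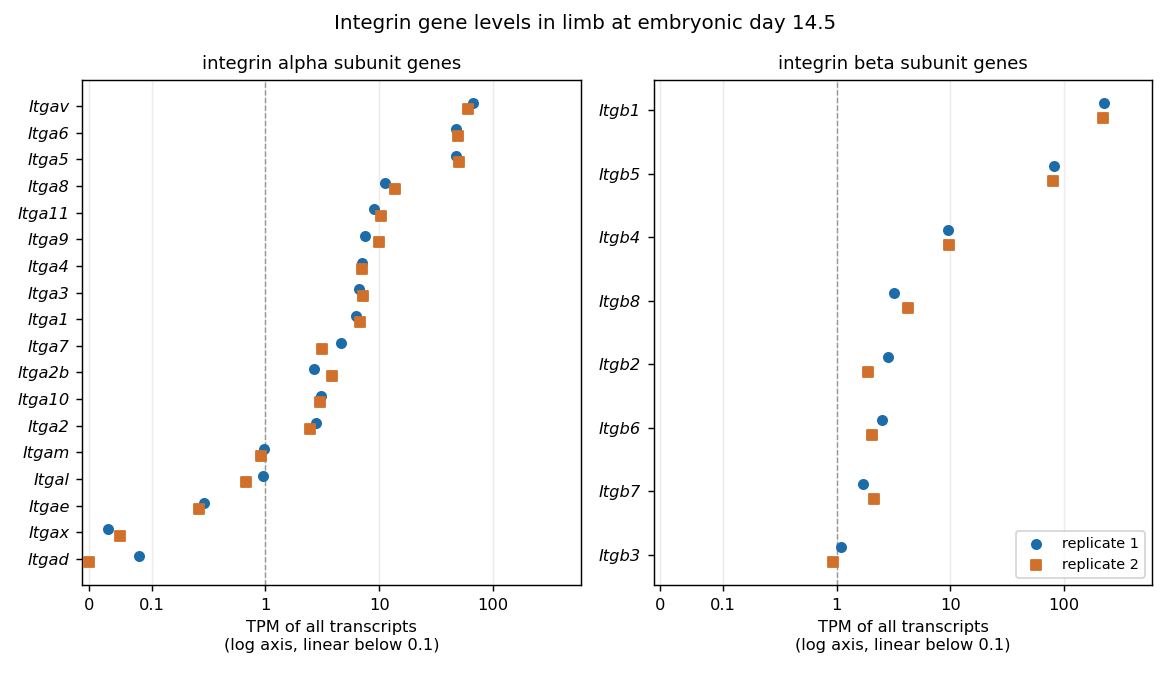
TPM of all transcripts of each integrin gene (horizontal log axis, linear below 0.1) in replicate 1 (circles) and replicate 2 (squares), with alpha genes left, beta genes right and the dashed line at 1 TPM. Itgb1 stood near 220 TPM in both libraries, and the 5 leukocyte alpha genes lay below 1 TPM.

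Alpha subunits had 3 leading genes on the deposited gene scale. Itgav, the alpha subunit of the vitronectin receptors, stood at 67.1 TPM in replicate 1 and at 60.8 TPM in replicate 2. Itga6, a laminin receptor subunit, stood at 47.9 TPM in replicate 1 and at 49.9 TPM in replicate 2. Itga5, the alpha subunit of the main fibronectin receptor, stood at 47.0 TPM in replicate 1 and at 50.2 TPM in replicate 2. The ranges of Itga6 and Itga5 overlapped, and that of Itgav lay above both. Over all 18 alpha genes, 9 of the 17 neighbouring pairs in the order of mean level had ranges that did not overlap.

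The order of these 3 depended on which transcripts were counted. A gene's TPM sums all its listed transcripts, including short and noncoding models, and TPM divides a count by length, so few reads on a short model can make much of a gene's TPM. Over complete protein-coding transcripts alone, a measure added after the data had been seen, Itga5 stood at 47.0 TPM in replicate 1 and at 50.2 TPM in replicate 2, Itga6 at 21.7 and 21.3 TPM, and Itgav at 16.0 and 16.6 TPM. The log2 ratio of Itga5 over Itgav was −0.39 ± 0.17 over all transcripts and 1.57 ± 0.03 over complete coding ones, so its direction turned.

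The model behind this was ENSMUST00000131192, whose 463 nt all lie within the exons of complete coding Itgav transcripts. It took 400 counts in replicate 1 and 318 in replicate 2, which were 13.4% and 11.3% of the gene's counts but 71.3% and 67.1% of its TPM. The complete coding transcripts held 84.2% of the counts in replicate 1 and 85.9% in replicate 2. The 175 coding bases of this short model, which span 2 exons within chr2:83802921-83803332 (GRCm38, plus strand), are shown because this model held most of the gene's TPM, and the same bases are found in the complete coding transcript of 7054 nt.
Itgav short model (ENSMUST00000131192): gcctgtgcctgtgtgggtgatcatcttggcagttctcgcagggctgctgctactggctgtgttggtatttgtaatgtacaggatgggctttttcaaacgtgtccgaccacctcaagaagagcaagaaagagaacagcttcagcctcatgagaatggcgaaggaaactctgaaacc

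By ligand, the alpha genes whose integrins bind the RGD motif of fibronectin and vitronectin summed highest. These 4, Itgav, Itga5, Itga8 and Itga2b, summed to 128 ± 0.495 TPM over all transcripts and 77.4 ± 4.21 TPM over complete coding ones. The 3 laminin-binding genes Itga6, Itga3 and Itga7 summed to 59.7 ± 0.764 and 32.2 ± 0.806 TPM on those scales. The 4 collagen-binding genes summed to 21.8 ± 1.22 and 21.4 ± 1.26 TPM, and Itga4 with Itga9 to 15.8 ± 1.67 and 12.6 ± 0.884 TPM. The order of the 4 classes was the same on both scales.

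Among the RGD-binding genes, Itga8, a receptor subunit for nephronectin, stood at 11.2 TPM in replicate 1 and at 13.9 TPM in replicate 2. Its ligand gene Npnt stood at 34.9 TPM in replicate 1 and at 35.2 TPM in replicate 2. Itga2b, the alpha subunit of the platelet fibrinogen receptor, stood at 2.69 TPM in replicate 1 and at 3.82 TPM in replicate 2, of which 1.03 and 1.48 TPM were in complete coding transcripts. Of the 6 platelet and megakaryocyte markers 4 were detected, with Pf4 at 59.0 TPM in replicate 1 and at 46.0 TPM in replicate 2, and Gp1ba and Treml1 under 1 TPM in both.

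Laminin-binding alpha genes were led by Itga6 on either scale. Itga6 exceeded Itga3 by a log2 ratio of 2.80 ± 0.05 (6.97-fold) over all transcripts and of 1.64 ± 0.14 over complete coding ones. Itga3, which serves in skin and kidney adhesion to laminin, stood at 6.62 TPM in replicate 1 and at 7.25 TPM in replicate 2. Itga7, the main laminin receptor subunit of skeletal muscle, stood at 4.63 TPM in replicate 1 and at 3.12 TPM in replicate 2. Itga6 also exceeded its hemidesmosome partner gene Itgb4 by 2.33 ± 0.04 over all transcripts and by 1.17 ± 0.0026 over complete coding ones.

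Collagen-binding genes were led by Itga11, a receptor of fibroblasts for fibrillar collagen. It stood at 8.92 TPM in replicate 1 and at 10.4 TPM in replicate 2, and exceeded Itga10, known from cartilage, by a log2 ratio of 1.64 ± 0.17 (3.11-fold). Itga10 stood at 3.06 TPM in replicate 1 and at 3.0 TPM in replicate 2. Itga1 and Itga2 lie side by side on chromosome 13, 20995 bases apart on the same strand, at 6.20 and 2.79 TPM in replicate 1 and at 6.85 and 2.46 TPM in replicate 2. Itga9 and Itga4, related subunits that bind the vascular adhesion protein VCAM1, stood at 7.55 and 7.06 TPM in replicate 1 and at 9.87 and 7.10 TPM in replicate 2.

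Leukocyte alpha genes were near or below 1 TPM. Itgam, the macrophage subunit, stood at 0.98 TPM in replicate 1 and at 0.91 TPM in replicate 2, and Itgal, the lymphocyte subunit, at 0.96 TPM in replicate 1 and at 0.68 TPM in replicate 2. The level of Itgam depended on the measure, with posterior mean TPM of 1.48 and 1.46 in replicates 1 and 2. Its complete coding transcripts held 0.25 and 0.36 TPM. These leave out an Itgam model of 4310 nt that has no GENCODE M21 entry and stood at 0.55 TPM in each library. Itgae stood at 0.29 TPM in replicate 1 and at 0.26 TPM in replicate 2. Itgax had 3 counts in replicate 1 and 4 in replicate 2. Itgad had 2 counts in replicate 1 and 0 in replicate 2, where a count of 0 allows up to 3 counts. Itgam, Itgax and Itgad are neighbours on chromosome 7, with gaps of 11.1 and 3.7 kb. Their shared partner Itgb2 was higher, at 2.85 TPM in replicate 1 and at 1.90 TPM in replicate 2, and the 6 leukocyte markers were all detected, with summed levels of 257 TPM in replicate 1, against 250 TPM in replicate 2. In these bulk samples, fewer cells of a type and less RNA per cell cannot be told apart.

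Over the whole group, alpha subunit TPM summed to less than beta subunit TPM. The 18 alpha genes summed to 228 ± 3.84 TPM and the 8 beta genes to 324 ± 1.61 TPM, a log2 ratio of −0.51 ± 0.03, which was −1.14 ± 0.06 over complete coding transcripts. The 12 alpha genes that can pair with Itgb1 (Itga1 to Itga11 and Itgav) summed to 220 TPM in replicate 1, against 225 TPM in replicate 2, beside Itgb1 at 223 and 222 TPM. Their log2 ratio over Itgb1 was −0.0013 ± 0.029 over all transcripts and −0.64 ± 0.06 over complete coding ones, so the near equality held on the first scale alone.

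Among laminins, Lama4, Lamb1, Lamb2 and Lamc1 were the leading chains, the alpha, beta and gamma chains known from vessel, nerve and general embryonic basement membranes. Lamc1, the gamma chain of most laminins, stood at 59.3 TPM in replicate 1 and at 60.3 TPM in replicate 2. It lies on the minus strand of chromosome 1, at chr1:153218922-153332786. Lamc3 stood at 0.65 TPM in replicate 1 and at 0.52 TPM in replicate 2, and Lamc1 exceeded it by a log2 ratio of 6.46 ± 0.21 over all transcripts and 5.49 ± 0.21 over complete coding ones.

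The beta chains Lamb1 and Lamb2 were close in level. Lamb1, the embryonic beta chain, stood at 56.4 TPM in replicate 1 and at 64.0 TPM in replicate 2. Lamb2, known from the neuromuscular junction and kidney filter, stood at 44.9 TPM in replicate 1 and at 53.3 TPM in replicate 2. The log2 ratio of Lamb1 over Lamb2 was 0.30 ± 0.05 (1.23-fold) over all transcripts and 0.51 ± 0.01 over complete coding ones. The latter leaves out a Lamb1 model of 2318 nt that has no GENCODE M21 entry. That model stood at 7.66 TPM in replicate 1 and at 7.11 TPM in replicate 2. Lamb3, the epidermal beta chain, stood at 3.56 TPM in replicate 1 and at 2.69 TPM in replicate 2. The log2 ratio of Lamb1 over Lamb3 was 4.24 ± 0.41, and 3.76 with posterior mean TPM.

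Of the alpha chains, Lama4, a chain of vessels and mesenchyme, was highest on both scales. It stood at 68.2 TPM in replicate 1 and at 72.7 TPM in replicate 2, with 40.5 and 43.8 TPM in complete coding transcripts. Lama5, the broad epithelial and vascular chain needed for digit separation in mice, stood at 24.3 TPM in replicate 1 and at 23.7 TPM in replicate 2, with 6.63 and 6.27 TPM in complete coding transcripts. Lama2, the chain around muscle fibres and nerves whose loss causes muscular dystrophy, stood at 11.8 TPM in replicate 1 and at 11.6 TPM in replicate 2, with 5.08 and 4.29 TPM in complete coding transcripts.

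The other alpha chains were lower. Lama3, the alpha chain of the epidermal laminin, stood at 6.68 TPM in replicate 1 and at 5.65 TPM in replicate 2. Its log2 ratio over its trimer partner Lamb3 was 0.97 ± 0.11 (1.95-fold), but 0.47 with posterior mean TPM. Lama1, known from the earliest embryonic basement membranes, stood at 1.84 TPM in replicate 1 and at 2.72 TPM in replicate 2. Lama5 exceeded Lama1 by a log2 ratio of 3.37 ± 0.41 over all transcripts and 1.49 ± 0.44 over complete coding ones. Lama4 exceeded Lama2 by 2.58 ± 0.09 over all transcripts and 3.15 ± 0.25 over complete coding ones.

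**Figure D2:**
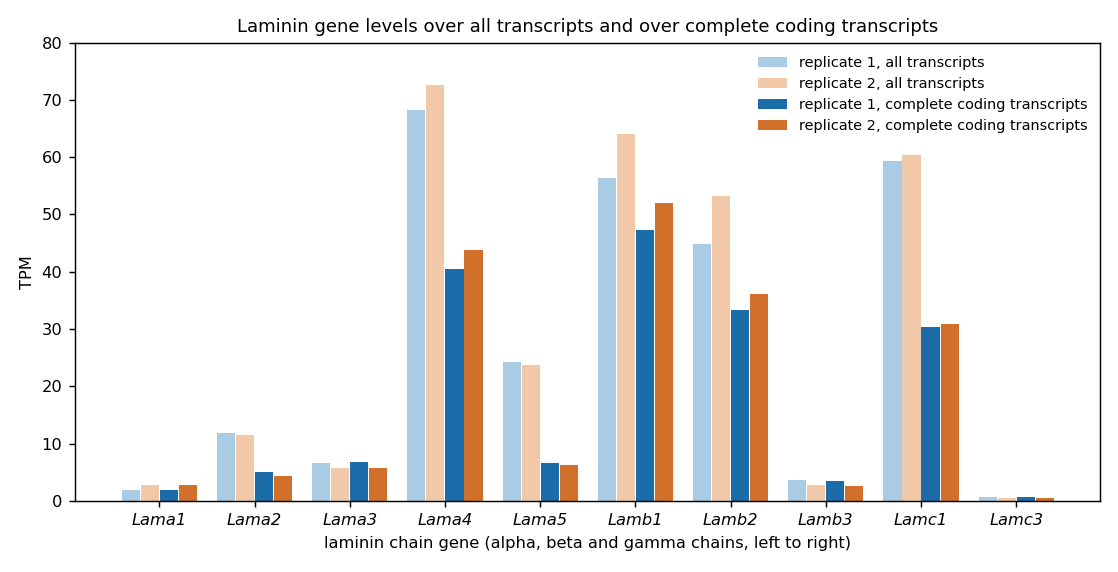
TPM of 10 laminin chain genes (vertical axis from 0) in each library, over all transcripts (pale bars) and over complete coding transcripts (dark bars). Lama4, Lamb1, Lamb2 and Lamc1 led on both scales, and Lama5 stood at 24.3 and 23.7 TPM over all transcripts, against 6.63 and 6.27 TPM over complete coding ones, in replicates 1 and 2.

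Summed over chains, laminin alpha genes stood at 115 ± 2.45 TPM, beta genes at 112 ± 10.7 TPM and gamma genes at 68.3 ± 0.198 TPM. Over complete coding transcripts the sums were 61.7 ± 1.35, 87.4 ± 4.75 and 38.8 ± 0.134 TPM, so that the beta sum lay above the alpha sum. Alpha over gamma was a log2 ratio of 0.75 ± 0.03 and beta over gamma 0.71 ± 0.13 on the first scale, and 0.67 ± 0.04 and 1.17 ± 0.08 on the second. Of the 10 neighbouring pairs of laminin genes in the order of level over all transcripts, 8 had ranges that did not overlap.

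The share of TPM in complete coding transcripts varied widely between these genes. Of the 31 genes that averaged at least 1 TPM, 16 had 95% or more of their TPM there in both libraries, 10 had under 80% in both, and 5 had under 50%, namely Itgav, Itga6, Itga2b, Lama5 and Lama2. Those 10 were 32.3% of the 31, beside 25.6% of the 13425 protein-coding genes at that level. At the 95% and 50% marks the shares over all genes were not computed, so those counts are not read as particular to this family. In counts, the share in complete coding transcripts was larger. Lama5 had 27.3% of TPM but 90.4% of counts in its complete coding transcript in replicate 1, and 26.5% of TPM but 90.0% of counts in replicate 2.

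**Figure D3:**
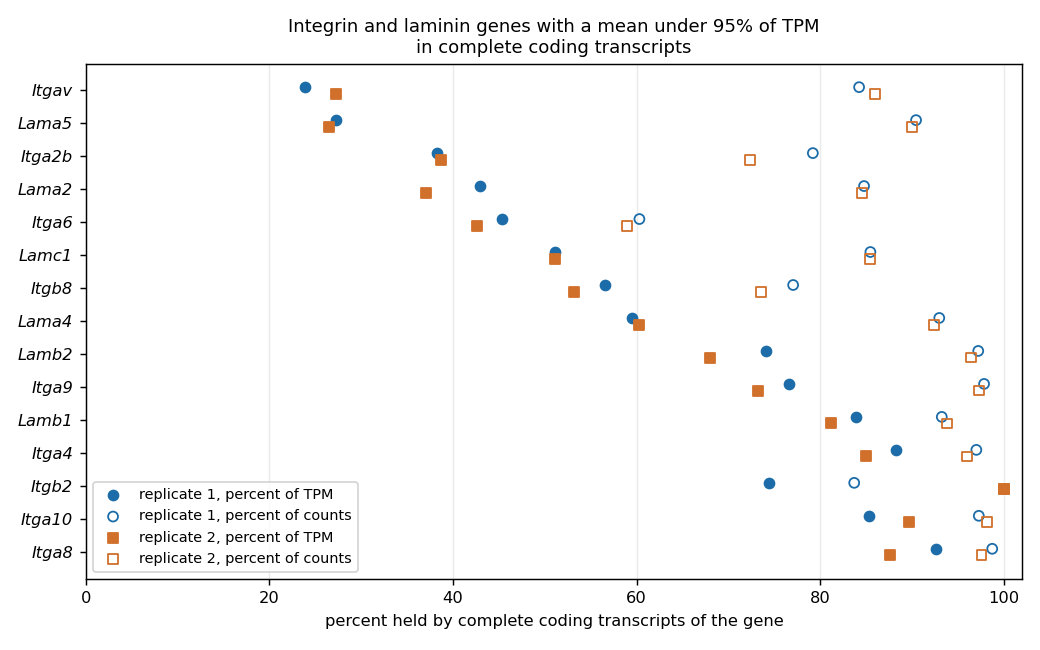
Percent of TPM (filled) and percent of counts (open) held by complete coding transcripts, for the integrin and laminin genes that averaged at least 1 TPM and whose mean percent of TPM is under 95%, in replicate 1 (circles) and replicate 2 (squares). Of the genes plotted, Itgav and Lama5 had the lowest percent of TPM, while their percent of counts lay between 84.2% and 90.4%.

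Among the genes that averaged at least 1 TPM, 12 incomplete or noncoding models, of 10 genes, each held a mean of 20% or more of their gene's TPM. They ran from 451 to 3676 nt, 9 of them under 1000 nt, and 5 lay wholly within the exons of complete coding transcripts. Lama5 had 3 of these, of 451, 478 and 734 nt, with 22.2% to 27.4% of the gene's TPM each. For Lamc1, an incomplete coding model of 1447 nt wholly within complete coding exons held 48.3% of TPM in replicate 1 and 48.2% in replicate 2, from 14.5% and 14.4% of counts. Reads on the shared bases can belong to either model, and the tables do not separate them. Such models were not counted over all genes, so their number is not read as particular to this family.

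A model of Lama4, ENSMUST00000163036, differed in that part of it is intronic. This retained-intron model of 511 nt held 35.6% of the TPM of Lama4 in replicate 1 and 33.4% in replicate 2, from 230 and 214 counts. Of its bases, 330 lie in complete coding exons and 181 lie outside them, at chr10:39105781-39105961 (GRCm38, plus strand). Those 181 bases are shown because they are the only ones that set this model apart.
Lama4 intronic bases: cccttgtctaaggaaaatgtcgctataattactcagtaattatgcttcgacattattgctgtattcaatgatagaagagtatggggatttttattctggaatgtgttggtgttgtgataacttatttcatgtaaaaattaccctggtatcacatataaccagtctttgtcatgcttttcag

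Models with bases of their own were also prominent for Lamb2, Itgb8 and Itga6. Such models of Lama2, Itga2b and Itga9 likewise held a mean of 20% or more of their gene's TPM. For Lamb2, a retained-intron model with 290 of its 578 nt outside complete coding exons held 20.6% of TPM in replicate 1 and 22.4% in replicate 2. Itgb8, whose integrin activates latent TGF-beta, had 32.7% of TPM in replicate 1 and 40.8% in replicate 2 in a retained-intron model of 3676 nt. Complete coding transcripts of Itgb8 stood at 1.82 TPM in replicate 1 and at 2.27 TPM in replicate 2.

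For Itga6, the tables did not settle which tail led. Among complete coding transcripts, the exon-keeping model of 4310 nt stood at 21.5 TPM in replicate 1 and at 19.7 TPM in replicate 2, and the skipping model of 4156 nt at 0.18 and 1.60 TPM. A noncoding model of 3 exons and 2721 nt holds the same skip junction shown above and stood at 20.9 TPM in replicate 1 and at 20.7 TPM in replicate 2. With it, the models that keep the exon held 50.6% of the informative TPM in replicate 1 and 46.8% in replicate 2. Of its bases, 1677 lie outside complete coding exons, and whether its reads came from the junction or from those bases was not tested.

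Itga3 was mostly of the exon-keeping form. Its models with the exon shown above held 6.41 TPM in replicate 1, against 6.81 TPM in replicate 2, and the skipping model held 0 and 0.43 TPM. By posterior mean TPM, the skipping model held 9.59% of the gene's TPM in replicate 1 and 14.9% in replicate 2. Models of Itgb4 that skip the 159-nt exon led, at 7.73 TPM in replicate 1 and at 7.11 TPM in replicate 2, against 1.88 and 2.32 TPM in those that keep it. A second coding exon of Itgb4, of 195 nt, was kept in models with 8.74% of the informative TPM in replicate 1 and 6.79% in replicate 2.

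Lama3 was nearly all of the short form. The transcript of 5551 nt held 94.5% of the gene's TPM in replicate 1 and 94.3% in replicate 2, and that of 10548 nt held the rest. The short form is the one known from the epidermal laminin. Other genes, among them Itgb1, Itga1, Itga2, Itga5, Itga7, Itgb7 and Lama1, each had over 99% of TPM in 1 transcript in both libraries. Of these, Itga1, Itga2, Itga5, Itga7 and Lama1 have only 1 listed transcript, so their share was fixed in advance and shows nothing about splice forms. The deposited levels of the genes named do not rest on short models.

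**Figure D4:**
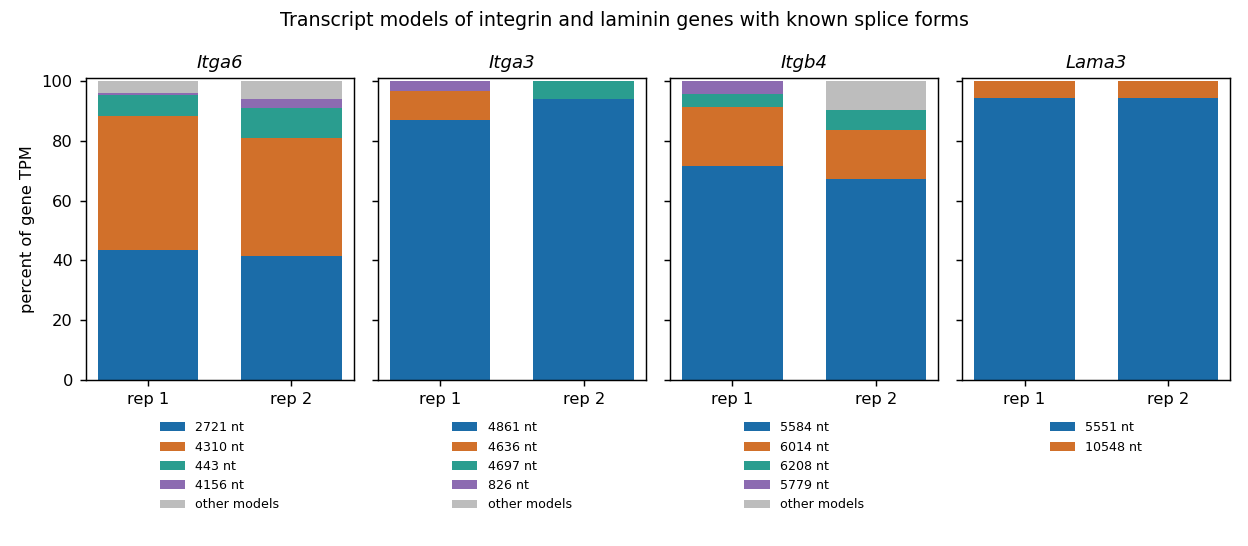
Percent of the gene's TPM held by the main transcript models, named by length, of Itga6, Itga3, Itgb4 and Lama3 in replicate 1 (left bar) and replicate 2 (right bar). The short form of Lama3 held 94.5% and 94.3%, the 5584-nt form of Itgb4 held 71.8% and 67.1%, and Itga6 was split mainly between models of 2721 and 4310 nt.

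Between the libraries, integrin and laminin genes that averaged at least 1 TPM differed by less than 1.5-fold by TPM, though not all did by scaled counts. Of the 31 integrin and laminin genes that averaged at least 1 TPM, 0 were past 1.5-fold on the log2(TPM + 0.1) scale. Of all 15307 genes at that level 6.95% were, 2.95% higher and 4% lower in replicate 1. The widest of the 31 was Itgb2 at 1.48-fold. The median log2 ratio of replicate 1 over replicate 2 was −0.01 over the 31 genes and −0.07 over all genes at that level. Median absolute ratios were 0.17 and 0.14. With 1 library on each side there is no replicate check of such a difference.

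Counting error alone did not cover many of the differences. The 95% exact interval of the count ratio, with TMM library sizes, left out 1 for 20 of 35 genes with 10 or more counts (57.1%), against 36.7% of 19153 genes. Of these, 14 were higher in replicate 1, where 19.3% of all genes were, and 6 were lower, where 17.3% were. With spike-in scaling, which moves all genes by 1 factor, 7 were higher, where 12.4% of all genes were, and 11 were lower, where 26.9% were. Under all 4 scalings run, Itga7, Itgal, Itgb2, Itgb6, Lama2, Lama3 and Lamb3 were higher, and Itga11, Itga2b, Itga8, Itga9, Itgb8 and Lama1 were lower. The share of all genes that kept a direction under all 4 was not computed, so these genes are not read as particular to this family. Genes with more counts have narrower intervals. With at least 50 counts in the sum and TMM sizes, 1 was left out for 20 of 34 genes, against 41.3% of all genes. These intervals compare the libraries and cover counting error only.

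For several leading genes the TPM and count ratios differed. Itga6 had a count ratio of 1.06 (1.01 to 1.11) but 0.961-fold TPM in replicate 1 over replicate 2. Lamb1 and Lamb2 had count ratios of 0.968 (0.936 to 1.00) and 0.962 (0.922 to 1.00), and 0.881-fold and 0.843-fold TPM. With total counts or spike-in scaling the interval of Itga6 held 1, and those of Lamb1 and Lamb2 lay below 1.

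The widest upward count ratio among the 35 was that of Itga7. It had 417 counts in replicate 1 and 262 in replicate 2, a ratio of 1.57 (1.34 to 1.84). On counts with TMM scaling it was past 1.5-fold, at 1.56-fold, while its TPM ratio was 1.47-fold. The 6 skeletal muscle markers, none of them at 0, summed to 1273 TPM in replicate 1, against 811 TPM in replicate 2, with 3 of 6 past 1.5-fold. Their part in the Itga7 difference was not tested.

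Epidermal chains were also higher in replicate 1 on counts. Lamb3 had 321 counts in replicate 1 and 228 in replicate 2, a ratio of 1.39 (1.17 to 1.65), and Lama3 had a ratio of 1.25 (1.13 to 1.38). Itgb6, an epithelial subunit that activates TGF-beta, had a ratio of 1.28 (1.06 to 1.56). The interval of Itgb4, 0.984 to 1.16, held 1. The 6 epidermal markers, all detected, summed to 1079 TPM in replicate 1, against 955 TPM in replicate 2, and their part in these differences was not tested.

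The lower side was led by Itga2b and Lama1. Itga2b had 100 counts in replicate 1 and 147 in replicate 2, a ratio of 0.671 (0.515 to 0.870), and on the scale with the pseudocount was past 1.5-fold with total counts (0.662-fold) and spike-in scaling (0.650-fold). The 6 platelet and megakaryocyte markers summed to 68.7 TPM in replicate 1, against 55.1 TPM in replicate 2, most of it Pf4. Pf4, Gp1bb, Gp1ba and Gp9 were higher in replicate 1, at 1.28-fold, 1.29-fold, 1.13-fold and 1.01-fold. Treml1 and Ppbp were lower, at 0.626-fold and 0.938-fold. Their counts in replicates 1 and 2 were 15 and 24 for Treml1, and 52 and 52 for Ppbp. The part of these 6 markers in the Itga2b difference was not tested. Lama1 had 398 counts in replicate 1 and 550 in replicate 2, a ratio of 0.713 (0.625 to 0.813). Itgb8, Itga8, Itga9 and Itga11 were lower by less, with ratios of 0.809, 0.889, 0.903 and 0.909. The 7 limb mesenchyme markers summed to 289 TPM in replicate 1, against 362 TPM in replicate 2, and their part in these differences was not tested.

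**Figure D5:**
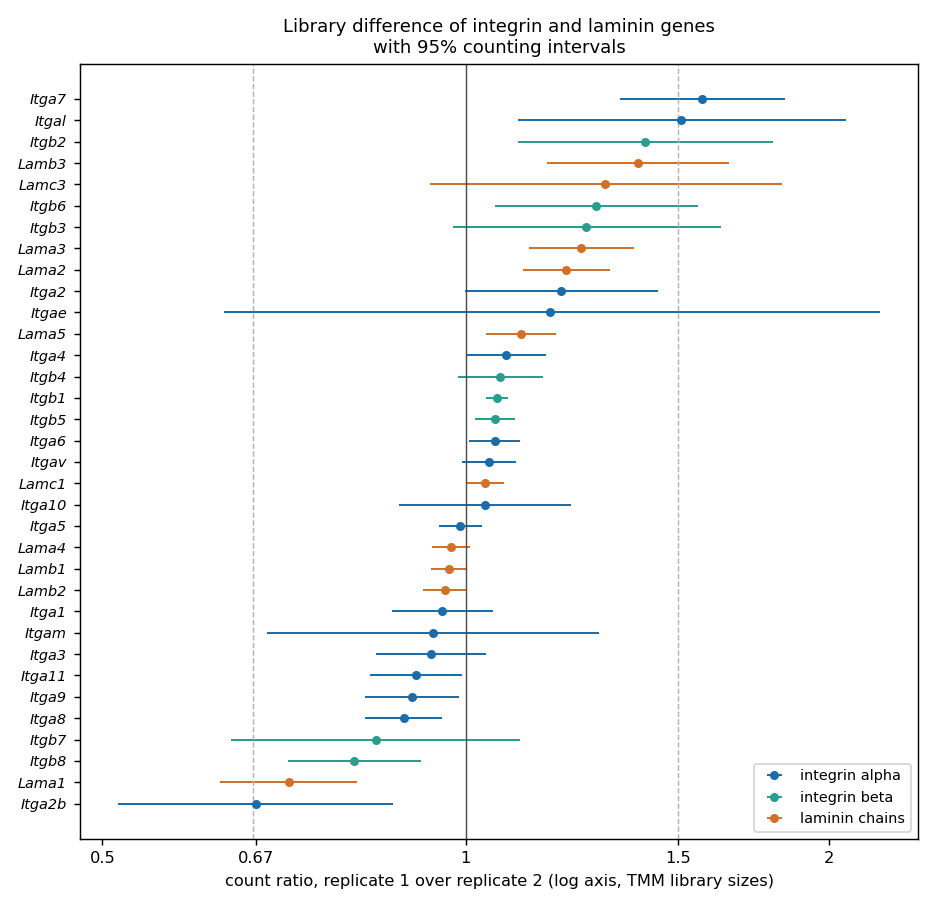
Count ratio of replicate 1 over replicate 2 (horizontal log axis, TMM library sizes) for 34 integrin and laminin genes with 10 or more counts, with 95% counting intervals as bars, a solid line at 1 and dashed lines at 1.5-fold. Itga7 stood highest at 1.57 and Itga2b lowest at 0.671.

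Genes of proteins that work beside these receptors were nearly all detected, 34 of 35. All 16 adaptor genes that couple integrins to actin were detected, with Ilk, a kinase-like scaffold, at 299 TPM in replicate 1 and at 287 TPM in replicate 2, and Zyx at 112 and 116 TPM. Of the talins, which switch integrins on, Tln1 stood at 46.1 TPM in replicate 1 and at 46.4 TPM in replicate 2, and Tln2 at 7.08 and 7.46 TPM. Fermt2, the kindlin of mesenchyme, stood at 75.9 TPM in replicate 1 and at 78.0 TPM in replicate 2, above the epithelial Fermt1 at 12.4 and 14.9 TPM and the blood cell Fermt3 at 7.52 and 7.73 TPM. Over complete coding transcripts Fermt1 stood at 2.54 TPM in replicate 1, against 2.68 TPM in replicate 2, below Fermt3, whose values are the same on both scales. Fermt2 stood there at 45.9 and 42.8 TPM.

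All 8 basement membrane partner genes were detected. Col4a1, a chain of basement membrane collagen, stood at 136 TPM in both libraries, and Nid1 and Nid2, which link laminin to that collagen, at 70.0 and 68.3 TPM in replicate 1 and 70.8 and 68.2 TPM in replicate 2. Dag1, the non-integrin laminin receptor dystroglycan, stood at 62.9 TPM in replicate 1 and at 58.8 TPM in replicate 2, and Bcam, a receptor for the Lama5 chain, at 88.9 and 87.4 TPM. Of 7 integrin ligand genes 6 were detected, with fibronectin gene Fn1 at 175 TPM in replicate 1 and at 193 TPM in replicate 2 and Vcam1 at 120 and 140 TPM. Over complete coding transcripts Fn1 stood at 84.2 TPM in replicate 1, against 92.4 TPM in replicate 2. Vitronectin gene Vtn was under 1 TPM, at 0.32 TPM in replicate 1 and at 0.33 TPM in replicate 2. All 4 hemidesmosome genes were detected, among them Col17a1 at 23.7 TPM in replicate 1 and at 22.9 TPM in replicate 2, and no gene of these 4 lists was past 1.5-fold between the libraries.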

How the data were processed

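Total RNA of limb from 2 libraries of 1 group was measured. The authors aligned to the transcriptome on mm10 with GENCODE M4, 1 replicate per table, per the notes filed with the samples. Aligner, quantifier, versions and strand were not given in the sources used here, so reads of overlapping genes cannot be told apart. The deposited expected counts estimate reads per gene or transcript and can be fractional. The deposited TPM values are divided by length and scaled to 1 total, with spike-ins in it. The authors also deposited each transcript's percent of its gene's TPM, posterior mean TPM, and signal bounds of TPM intervals, which were not used for calls.

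Symbols, positions, transcript types and sequences came from GENCODE M21 on GRCm38, the assembly mm10 names. Of 43346 identifiers 42462 matched, and of 181 transcripts of the 37 genes 179 matched, 169 with equal length, the condition for using a structure or sequence. A complete coding transcript has type protein_coding and no unfinished coding end in M21. The 2 transcripts without a match, of Itgam and Lamb1, have no type there and were not counted as complete coding. No promoter sequence is shown.

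Counts were rounded. Ratios between genes and libraries used log2(TPM + 0.1), which understates changes of low genes. Intervals of count ratios were exact Clopper-Pearson at 95% with edgeR TMM library sizes, for 10 or more counts in the sum, and cover counting error only. They were tested on simulated data. The precision rests on 34193161 counts in replicate 1 and 32879425 in replicate 2. An exact sign-flip test of 2 libraries cannot reach significance, so ratios carry no p. Genes given in full were the 3 highest of each subfamily, those of the planned ratios and those past 1.5-fold, beside named list genes; others were named after their values were seen. The values of 1 gene are not reported here, though it stays in counts and sums. The genes and lists were chosen with earlier results of these data known. Alternatives covered scaling, pseudocount, minimums, posterior means, complete coding transcripts and single replicates. Python 3.11.15, pandas 2.3.3, scipy 1.17.1, matplotlib 3.10.9, R 4.3.3, edgeR 4.0.16 and DESeq2 1.42.0 were used.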

Additional observations from a re-analysis of the deposited data

How the results depend on the processing

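The transcripts counted changed the sums. Over complete coding transcripts alone, chosen after the data were seen, the sums were 145 TPM for integrin alpha, 320.3 TPM for integrin beta, 61.7 TPM for laminin alpha, 87.4 TPM for laminin beta and 38.8 TPM for laminin gamma genes. With posterior mean TPM, integrin beta genes summed to 320.0 TPM and laminin gamma genes to 67.9 TPM, moves larger than the small spread between libraries, and the median percent of TPM in the leading transcript was 68.6% in place of 87.2%. The log2 ratio of Itga5 over Itgav turned to 1.57 over complete coding transcripts. The log2 ratio of the alpha genes that can pair with Itgb1 over Itgb1 turned to 0.024 with posterior mean TPM, and it ranged from −0.022 without replicate 2 to 0.019 without replicate 1. Against 0 genes past 1.5-fold, there was 1 with no TPM minimum, 1 with TMM-scaled counts, 1 with DESeq2 size factors, 2 with total counts and 1 with spike-in scaling, where 13.7% of all genes were with no minimum and 5.72% to 5.77% with the count scalings, these being Itgad with no minimum, Itga2b with spike-ins, Itga7 with TMM and DESeq2, and both Itga7 and Itga2b with total counts. The cause was not tested. edgeR's exact test was also run between the libraries, with a spread common to all genes estimated from these same 2 libraries. That spread holds the difference under test, so no conclusion is drawn from its calls. No paired analysis was possible because the samples form 1 group.

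With single replicates, the genes detected ranged from 30 to 31, the partner genes stayed at 34, the ratios above 1 ranged from 13 to 14 of 16, and the leading transcript median from 86.9% to 87.6%. The sums ranged from 225 to 231 TPM for integrin alpha, 323 to 325 TPM for integrin beta, 113 to 116 TPM for laminin alpha, 105 to 120.0 TPM for laminin beta and 68.2 to 68.4 TPM for laminin gamma genes. With detection at 0.5 TPM 34 of the 37 genes passed, and at 5 TPM 20 did. Of the partner genes 34 and 31 passed at those marks. The shares over all protein-coding genes at those marks were not computed. Other settings kept the remaining counts within 1.5 times. Depth limits Itgax and Itgad, at 0 to 4 counts a library.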
